A study of Rattus norvegicus with 20 samples.

Results

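The cytochrome P450 genes of families Cyp2 and Cyp3a were followed in rat liver over 4 diets. Members were all probe sets whose platform gene symbol began with Cyp2 and a subfamily letter, or with Cyp3a. This gave 34 of the 31042 probe sets of the deposited table, and they name 33 of the 14863 genes named there. Of these, 31 probe sets name 1 gene each and stand for 29 genes, and 3 name a pair of genes and are reported apart. The rats were 20 female Sprague Dawley animals, 5 per diet and 1 array each, fed for 24 days on an unsupplemented Harlan Teklad mash diet (control) or on the same formulation with 1 added compound. The BNF diet held 5,6-benzoflavone, an agonist of the aryl hydrocarbon receptor, at 1650 mg per kg. The D3T diet held 3H-1,2-dithiole-3-thione at 600 mg per kg, and the OLT diet held oltipraz at 500 mg per kg, which is the D3T ring with methyl and pyrazinyl substituents. Both dithiolethiones are known activators of the transcription factor Nrf2. The labels name no genetic change in any group, and ages are not given in the sources used here. Values are GCRMA probe set summaries on the log2 scale, where a step of 1 is a factor of 2.

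Cytochrome P450 enzymes are heme proteins of the endoplasmic reticulum that take electrons from NADPH through P450 reductase and oxidize drugs, steroids, fatty acids and other lipids. Families Cyp2 and Cyp3a hold most of the drug-metabolizing P450 enzymes of rat liver, and many of their genes are switched by the nuclear receptors CAR (Nr1i3) and PXR (Nr1i2). In the rat several are also sex-dependent, because the pattern of growth hormone release differs between the sexes. Cyp2c11, Cyp2c13, Cyp2a2 and Cyp3a2 are known as male-type genes and Cyp2c12 as the female-type gene.

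The sex-dependent members just named had the female pattern. Cyp2c12 lay between 14.09 and 14.94 on all 20 arrays. The probe set naming Cyp2c11 alone lay between 2.33 and 2.48, Cyp2c13 between 2.44 and 2.67, Cyp2a2 between 3.24 and 3.47, and Cyp3a2 between 4.00 and 4.67, all close to the background that GCRMA leaves. The 7 hepatocyte markers kept of 8 had a summed level between 17.47 and 17.94 over the 20 arrays.

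For tests, a probe set was kept when its log2 value was above 4 on at least 5 of the 20 arrays. By this rule 23 members were kept, 20 with 1 gene (19 genes) and the 3 that name several, among 12947 kept probe sets in all. The 11 members not kept were Cyp2a2, Cyp2a3, Cyp2b12, Cyp2b21, Cyp2c11, Cyp2c13, a second Cyp2d4 probe set, Cyp2g1, Cyp2j10, Cyp2s1 and Cyp2u1. Cyp2j10 stood just outside the rule, above 4 on 3 arrays. A second Cyp2j3 probe set (1381074_at), above 4 on 16 arrays, and Cyp3a2, above 4 on 19, were kept. Both lay close to 4 in value on most arrays. The other kept members were above 4 on all 20 arrays. Cyp2b1, Cyp2b2, Cyp2d1 and Cyp2d5 were read only through probe sets shared with a partner gene. Probe sequences were not used here, so signal shared between related genes of 1 subfamily was not tested.

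The start regions of 4 members are printed first, because Cyp3a9 and Cyp3a23-3a1 fell on the D3T diet and Cyp2c22 moved in opposite directions on the BNF and D3T diets, with Cyp3a2 beside its neighbour Cyp3a23-3a1. Each is the 250 bases before the gene's start in RefSeq's GRCr8 assembly, read 5′ to 3′ on the gene's own strand. Capitals mark the nuclear receptor half-site AGNTCA, on either strand, and the HNF4 core CAAAGTCCA. The regions are Cyp3a23-3a1 at chr12:14398804-14399053 (minus strand), Cyp3a2 at chr12:14343858-14344107 (minus), Cyp3a9 at chr12:21960161-21960410 (minus) and Cyp2c22 at chr1:248980768-248981017 (minus).
Cyp3a23-3a1: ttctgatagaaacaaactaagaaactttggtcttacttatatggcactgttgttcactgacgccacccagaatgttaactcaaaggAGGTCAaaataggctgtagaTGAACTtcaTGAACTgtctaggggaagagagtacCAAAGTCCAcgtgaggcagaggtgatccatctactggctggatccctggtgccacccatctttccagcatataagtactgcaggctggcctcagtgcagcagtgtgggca
Cyp3a2: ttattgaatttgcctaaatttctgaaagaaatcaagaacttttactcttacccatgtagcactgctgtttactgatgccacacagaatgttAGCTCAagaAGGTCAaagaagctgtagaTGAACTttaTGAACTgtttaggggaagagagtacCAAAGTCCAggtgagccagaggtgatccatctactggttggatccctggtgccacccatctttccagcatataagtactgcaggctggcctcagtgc
Cyp3a9: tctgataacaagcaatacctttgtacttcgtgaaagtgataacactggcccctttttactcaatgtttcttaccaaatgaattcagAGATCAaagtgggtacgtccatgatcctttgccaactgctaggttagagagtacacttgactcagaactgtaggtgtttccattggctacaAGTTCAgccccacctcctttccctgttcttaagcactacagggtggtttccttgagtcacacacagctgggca
Cyp2c22: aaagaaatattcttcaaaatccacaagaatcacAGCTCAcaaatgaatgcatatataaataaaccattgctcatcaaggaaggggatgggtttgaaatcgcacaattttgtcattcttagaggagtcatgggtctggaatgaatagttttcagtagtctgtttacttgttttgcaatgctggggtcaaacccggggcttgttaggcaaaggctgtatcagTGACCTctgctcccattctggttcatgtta

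The first pair, Cyp3a23-3a1 and Cyp3a2, are neighbours in RefSeq's gene order and share 79.2% of 265 aligned columns of these regions. Cyp3a23-3a1 and Cyp3a9 share 58.5% of 287 columns, against 49.8% of 293 for Cyp3a23-3a1 and Cyp2c22, which belong to different families. Cyp3a2 and Cyp3a9 share 53.4% of 294, close to the 51.2% of 293 for Cyp3a9 and Cyp2c22. In the Cyp3a23-3a1 region, TGAACT stands 2 times with 3 bases between, at positions -144 to -130 from the start, which read on the other strand is a direct repeat of the half-site, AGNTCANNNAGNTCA. The Cyp3a2 region holds this repeat at positions -131 to -117 and again, on its own strand, at -159 to -145. A direct repeat of this spacing is a form that PXR is known to bind. Motifs were searched on both strands of windows from 250 bases before to 50 after the start, which RefSeq gave for 31 of the 33 member genes. The repeat was found in these 2 member windows and in 26 (0.0777%) of the 33469 windows of all genes. The HNF4 core stood in the same 2 members and in 0.391% of all windows. The single half-site, which the repeat contains, was in 19 of the 31 member windows and in 46.7% of all. The repeat with 4 bases between (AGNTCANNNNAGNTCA) and the everted repeat TGANCTNNNNNNAGNTCA were in none of the member windows and in 0.0568% and 0.0388% of all. GCGTG, the core of the aryl hydrocarbon receptor element, was in 4 member windows (Cyp2b1, Cyp2b2, Cyp2t1 and Cyp2u1) and in 29.7% of all, and the antioxidant response core TGACNNNGC was in 1 (Cyp2s1) and in 12.1% of all. TTCNNNGAA, the form read by STAT5, was in 3 members (Cyp2b12, Cyp2t1 and Cyp2j4) and in 8.87% of all. These are matches of letters and were not tested as binding sites.

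The 20 arrays correlated with each other between 0.930 and 0.992 over kept probe sets. The array labelled D3T 5 had a mean correlation of 0.968 with the other D3T arrays and of 0.979 with the OLT arrays, and OLT 1 had 0.963 with its own group and 0.966 with the D3T arrays. The margin of OLT 1 was small. Other margins were narrow too: D3T 2 and OLT 5 had 0.970 and 0.965 with their own groups. With the other dithiolethione group they had 0.968 and 0.963. Diet-marker genes were read by array as a check of the labels. Cyp1a1, the classical target of the aryl hydrocarbon receptor, lay between 13.50 and 13.77 on BNF and between 3.99 and 6.59 in control livers. Akr1b8, an aldo-keto reductase, read 13.61, 13.82, 13.86, 13.42 and 5.77 on D3T and 13.61, 5.55, 4.58, 6.20 and 4.46 on OLT. Gstp1, a glutathione transferase, read 15.09, 15.28, 14.89, 14.79 and 10.30 on D3T and 15.26, 9.58, 9.62, 8.68 and 9.72 on OLT. For Akr7a3, an aflatoxin aldehyde reductase, the D3T arrays read 13.88, 14.29, 14.17, 13.82 and 11.35 and the OLT arrays 14.33, 11.45, 10.87, 10.68 and 11.21. On all 3 genes D3T 5 lay near the other OLT arrays and OLT 1 near the other D3T arrays, so these checks go against the labels of both. D3T 5 and OLT 1 below mean the arrays so labelled, the groups were kept as labelled, and every D3T or OLT direction from all 20 arrays rests on those labels. Values without the pair are given beside the member results they move, while genes of the other lists were fitted on all 20 arrays only. Each array's median varied, and centring arrays on it would add 0.07 to a BNF difference from control, 0.15 to a D3T difference and 0.17 to an OLT difference.

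Tests of diets used limma on 1 fit of all 20 arrays, two-sided, and every adjusted p below is limma's after Benjamini-Hochberg adjustment over the 12947 kept probe sets. A member is called where that p was under 0.05. The 3 comparisons with control share the same 5 control arrays and are therefore not independent of each other. Each group was 5 rats, so the p-values measure the spread between rats, and their number limits the precision of every value. Values by array are listed from replicate 1 to 5, and the replicates have no order.

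On the BNF diet 3 of the 20 members with 1 gene were called, where 3.48% of all kept probe sets were. None was higher (1.46% of all) and 3 were lower (2.02%). They were Cyp2c22, Cyp3a9 and Cyp2j3, and the pair probe set of Cyp2a2 and Cyp2a1 was called higher. On the D3T diet 7 of 20 were called, 5 higher (Cyp2c22, Cyp2f4, Cyp2t1, Cyp2c12 and Cyp2c23) and 2 lower (Cyp3a9 and Cyp3a23-3a1), against 11.6% of all kept probe sets (4.63% higher and 6.97% lower). On the OLT diet 2 of 20 were called, Cyp2c12 higher and Cyp2d3 lower, against 6.38% of all kept probe sets (1.53% higher and 4.85% lower), so that 2 of 20 lies near the background. With arrays centred on their medians the split of higher and lower calls became 2 and 3 for BNF, 4 and 2 for D3T and 3 and 0 for OLT. Over all kept probe sets the share of calls that were higher went from 42.0% to 57.7% for BNF, from 39.9% to 63.1% for D3T and from 24.0% to 56.1% for OLT under centring. Leaving out D3T 2 brought the D3T count to 4. The OLT count was 0 without control 2, without control 4 or without OLT 1, with 8 members at an unadjusted p under 0.05 in each of these fits, and 1 without control 1, control 3, control 5, BNF 4, OLT 2 or OLT 3.

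**Figure D1:**
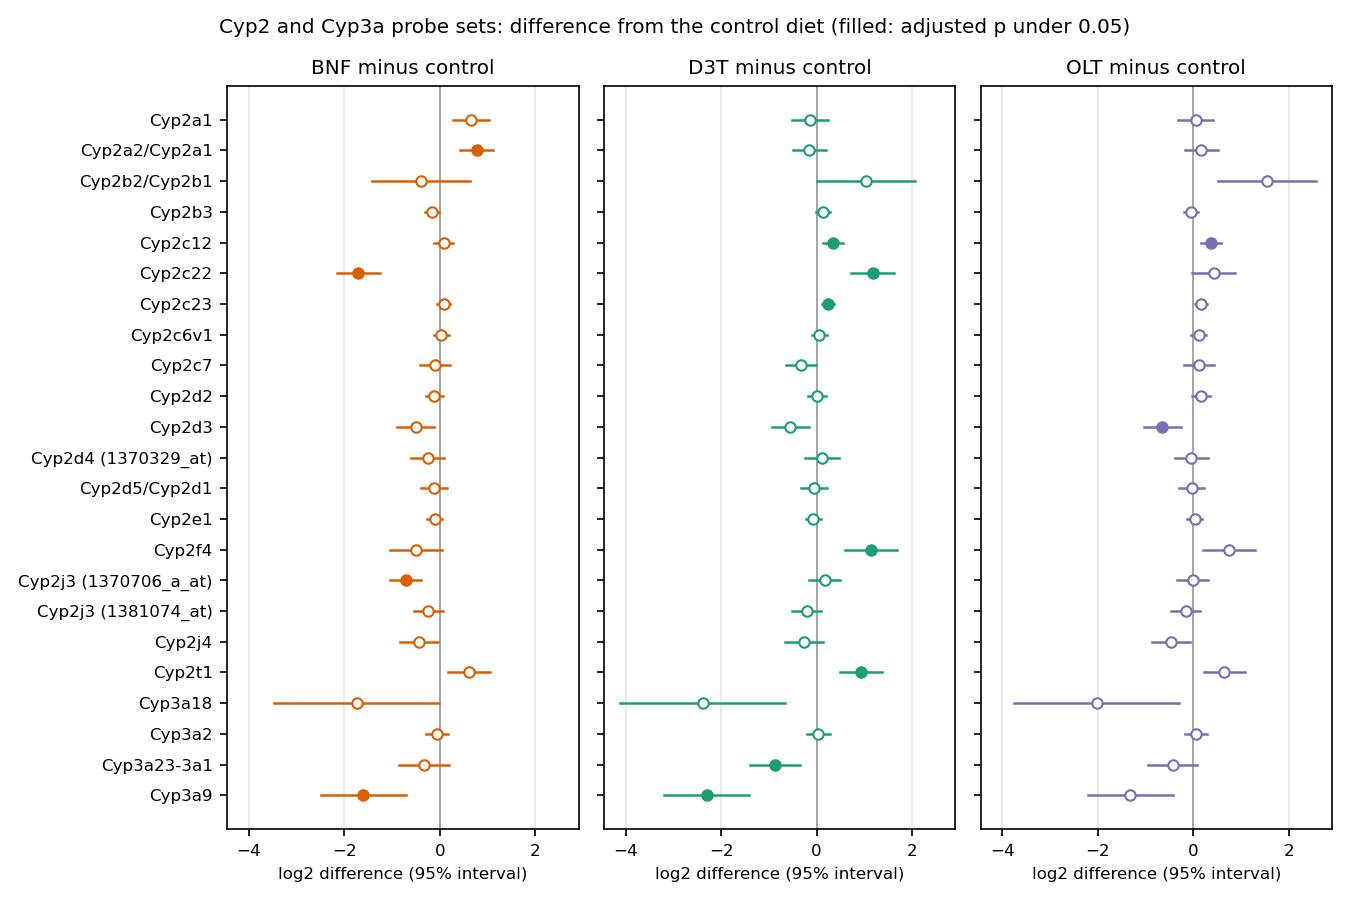
Difference from control on the log2 scale with its 95% interval (x axis) for the 23 kept members (y axis), 1 panel per supplemented diet; filled points have an adjusted p under 0.05. The points of Cyp3a9 and Cyp3a18 lie left of 0 in all 3 panels, and Cyp2c22 lies at -1.71 for BNF and 1.17 for D3T.

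By subfamily the differences were unevenly spread. The 4 kept Cyp3a members had a median difference from control of -0.97 on BNF, -1.58 on D3T and -0.88 on OLT, where all 12947 kept probe sets had -0.05, -0.02 and -0.04. Without D3T 5 and OLT 1, Cyp3a9, Cyp3a18, Cyp3a23-3a1 and Cyp3a2 differed by -0.96, -1.06, -0.22 and 0.07 on OLT. On D3T they then differed by -2.65, -2.63, -1.01 and 0.05. Cyp3a2 lay near background. The 5 kept Cyp2c members had medians of 0.02, 0.23 and 0.16, and the 3 kept Cyp2d members -0.26, 0.00 and -0.05. For the 3 Cyp2j probe sets they were -0.44, -0.21 and -0.16. The members with 1 gene together had medians of -0.21, 0.02 and 0.04. Subfamilies 2a, 2b, 2e, 2f and 2t each had 1 kept probe set of 1 gene.

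Cyp3a9 (1370387_at), a P450 that female rat liver expresses more than male liver, fell on the BNF and D3T diets. The control arrays read 13.46, 13.65, 13.19, 13.70 and 13.81, and the BNF arrays 11.35, 11.46, 12.68, 11.75 and 12.53. The D3T arrays read 11.31, 10.42, 10.45, 11.45 and 12.67, and the OLT arrays 10.83, 12.33, 12.00, 13.03 and 13.04. Every array of the supplemented diets lay below every control array, with D3T 5 the highest of its group and OLT 1 the lowest of its own. The group means were 13.56 ± 0.24 (SD, n = 5) for control, 11.95 ± 0.61 for BNF, 11.26 ± 0.92 for D3T and 12.24 ± 0.91 for OLT. The difference from control was -2.30 (SE 0.42, adjusted p = 0.00167) on D3T, 4.92-fold lower, and -1.61 (adjusted p = 0.0413) on BNF, 3.05-fold lower. On OLT it was -1.32 (adjusted p = 0.0706) and was not called. The BNF call was lost when control 1, 2, 4 or 5, BNF 1, 2 or 4, or OLT 2 was left out, with differences from -1.63 to -1.46 and adjusted p from 0.0534 to 0.117. Without D3T 5 and OLT 1 the BNF difference was -1.61 with an adjusted p of 0.00397, and the D3T difference was -2.65. OLT was called when D3T 5 was left out (adjusted p = 0.0384) or OLT 5 was (-1.51, adjusted p = 0.0379), while without OLT 1 it was -0.96 (adjusted p = 0.182) and without the pair -0.96 (adjusted p = 0.0874). The BNF call was also lost with no filter (adjusted p = 0.0889) and with the arrays' interquartile range as a covariate (-1.22, adjusted p = 0.0791). The OLT difference was called with array weights (-1.25, adjusted p = 0.0215) and with the replicate block (adjusted p = 0.0352).

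Cyp3a23-3a1 (1387118_at), the PXR-inducible Cyp3a form of rat liver, fell on D3T. Its control values were 14.70, 14.39, 14.64, 14.69 and 15.02, and those on BNF 14.26, 13.70, 14.50, 14.52 and 14.77. On D3T they were 13.35, 13.35, 14.12, 13.88 and 14.39, and on OLT 13.38, 14.09, 14.61, 14.61 and 14.56. D3T 5 lay just below the lowest control array, while 3 OLT arrays lay within the control range and OLT 1 lay with the lowest D3T arrays. The D3T difference was -0.87 (SE 0.25, adjusted p = 0.0285), 1.83-fold lower. It was -0.34 on BNF (adjusted p = 0.590) and -0.44 on OLT (adjusted p = 0.306), neither of them called, and without OLT 1 the OLT value was -0.22 (adjusted p = 0.652). The D3T call was lost without control 1, 4 or 5 or without D3T 1 or 2 (-0.87 to -0.75, adjusted p from 0.0518 to 0.0807) and with no filter (adjusted p = 0.0662), and without D3T 5 and OLT 1 the difference was -1.01 (adjusted p = 0.00322).

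Cyp3a18 (1398307_at), a further Cyp3a form, had the largest spread of the members. The control arrays read 10.63, 10.13, 9.34, 10.43 and 10.84, and on BNF 8.41, 7.05, 8.51, 9.61 and 9.05. D3T livers gave 7.41, 5.95, 8.74, 8.46 and 8.87, and OLT livers 4.39, 7.91, 9.43, 10.01 and 9.52. All 5 D3T arrays lay below all control arrays, and OLT 1, at 4.39, was near background while OLT 3, 4 and 5 lay within the control range. The differences from control were -1.75 on BNF (adjusted p = 0.309), -2.39 on D3T (adjusted p = 0.0691) and -2.02 on OLT (adjusted p = 0.153), and none was called. Without D3T 5 and OLT 1 the D3T difference was -2.63 (adjusted p = 0.0058), and without OLT 1 alone it was -2.39 (adjusted p = 0.00801). Array weights, only the groups compared, the replicate block and the interquartile covariate also called the D3T difference (adjusted p from 0.0154 to 0.0368). Array weights also called the OLT difference (adjusted p = 0.0404). With OLT 1 left out, the OLT difference shrank to -1.06. In every scaling, filter and leave-out run, Cyp3a9, Cyp3a18 and Cyp3a23-3a1 stayed below control on all 3 diets.

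Cyp3a2, whose start region most resembles that of Cyp3a23-3a1, read 4.00, 4.20, 4.28, 4.32 and 4.23 in control, 4.06, 4.19, 4.24, 4.03 and 4.18 in BNF, 4.05, 4.23, 4.26, 4.50 and 4.18 in D3T and 4.14, 4.23, 4.67, 4.17 and 4.04 in OLT livers. All groups overlapped, no difference from control passed 0.07 in size, and near background a change would be hard to read.

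**Figure D2:**
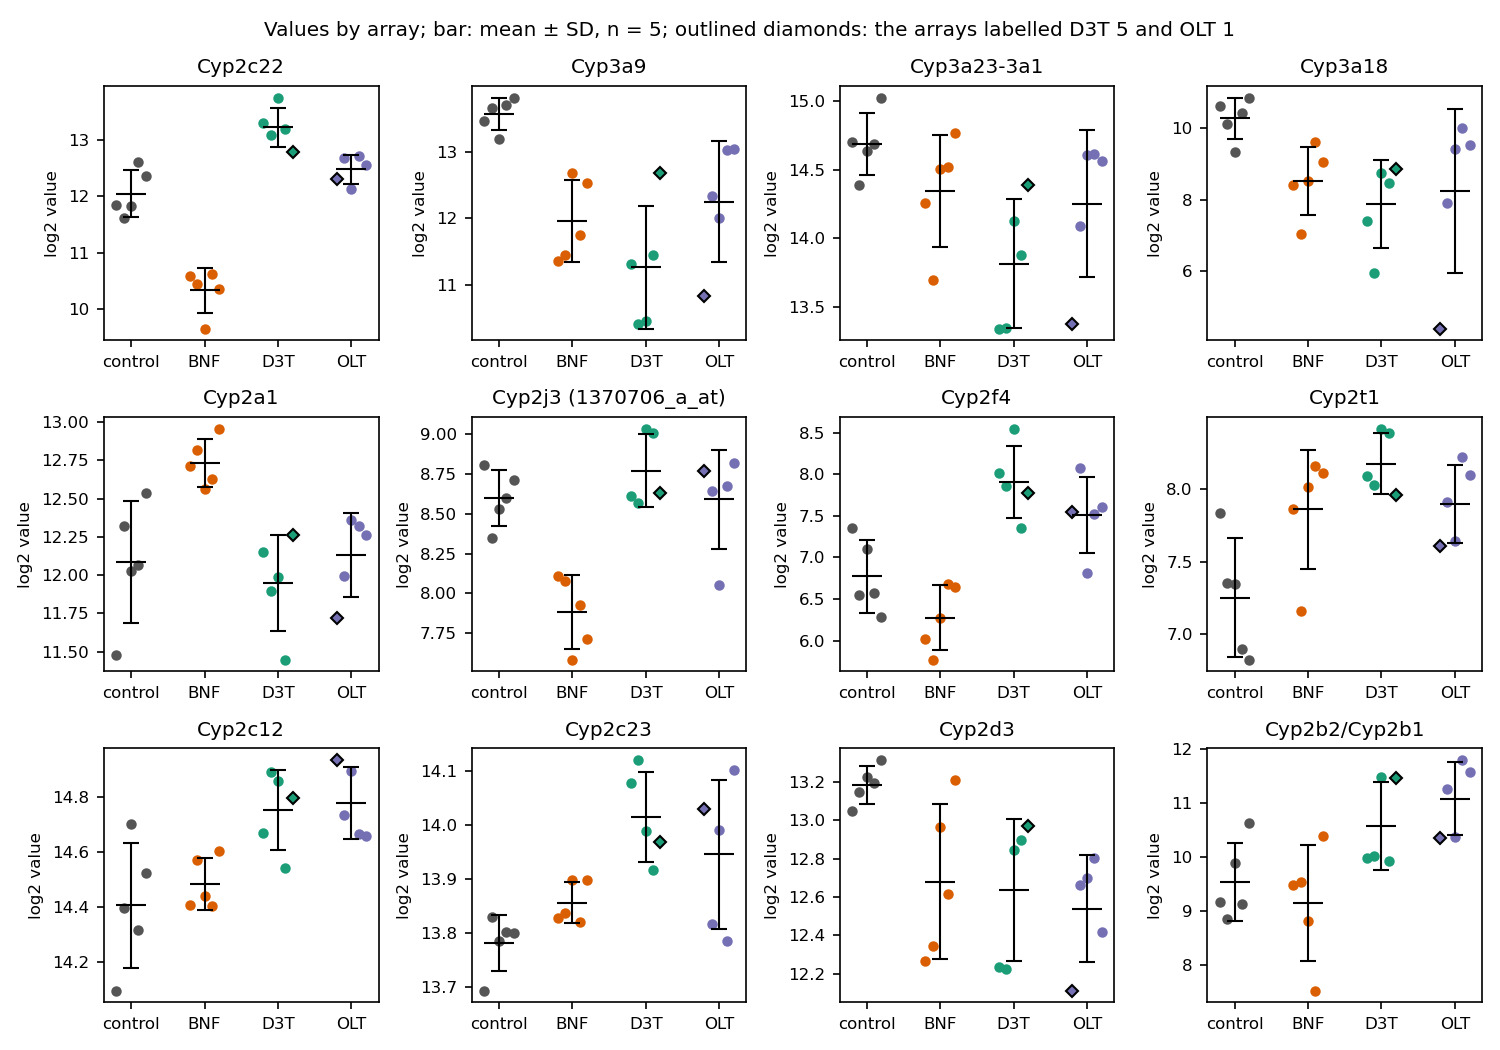
Log2 value (y axis) of 12 member probe sets on each of the 20 arrays by diet (x axis), with mean and SD (n = 5) as black bars; outlined diamonds are the arrays labelled D3T 5 and OLT 1. Cyp2c22 is separated by diet, with BNF arrays from 9.65 to 10.63 and D3T arrays from 12.79 to 13.75, while for Cyp3a9 and Cyp3a18 the OLT 1 array is the lowest of its group.

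Livers of 1 diet differed in their Cyp3a level, and Cyp3a18 and Cyp3a23-3a1 moved together across arrays. Deviations of each array from its diet mean were compared over the 20 arrays, with p from 100000 permutations within diets, adjusted over the 3 pairs. Cyp3a18 and Cyp3a23-3a1 correlated at r = 0.887 (permutation p = 6e-05, adjusted 0.00018) and rho = 0.878 (adjusted 0.00027), and without OLT 1 and D3T 2, the arrays farthest from the median of Cyp3a18, r was 0.837. Cyp3a9 correlated with Cyp3a18 at r = 0.685 (permutation p = 0.00847, adjusted 0.0085; rho = 0.577, adjusted 0.0248) and with Cyp3a23-3a1 at r = 0.684 (permutation p = 0.0085, adjusted 0.0085; rho = 0.645, adjusted 0.0163). Without D3T 5 and OLT 1, with deviations taken anew over 18 arrays, both relations of Cyp3a9 were weaker. They fell to r = 0.417 (permutation p = 0.158, adjusted 0.235) and r = 0.361 (permutation p = 0.235, adjusted 0.235). Leaving the same 2 arrays out of the deviations over 20 arrays gave r = 0.528 and r = 0.474. The strength of the Cyp3a9 relations therefore depends on those 2 arrays, and whether they hold without them is not settled. The relation of Cyp3a18 and Cyp3a23-3a1 stayed at r = 0.838 (permutation p = 0.00062, adjusted 0.00186). The points share arrays, and signal shared between related probe sets was not tested.

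**Figure D3:**
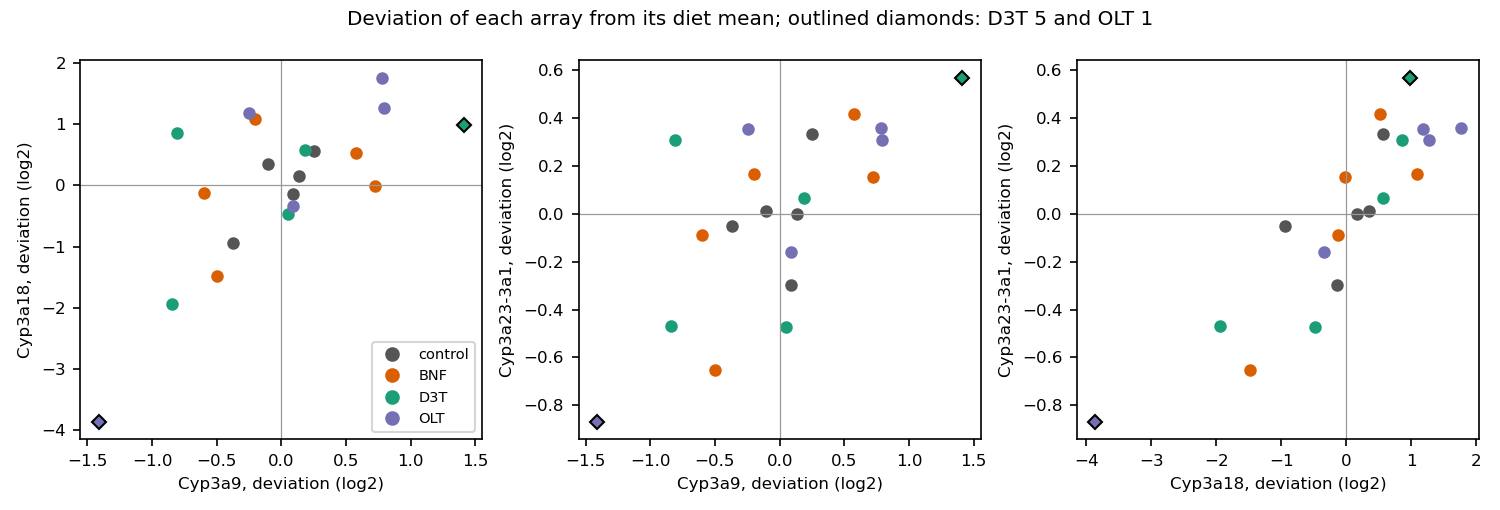
Deviation of each of the 20 arrays from its diet mean on the log2 scale for the 3 pairs of Cyp3a9, Cyp3a18 and Cyp3a23-3a1, coloured by diet; outlined diamonds are D3T 5 and OLT 1. OLT 1 lies at the lower left of every panel and D3T 5 at the upper right of the panels of Cyp3a9, and the points of Cyp3a18 and Cyp3a23-3a1 follow 1 band (r = 0.887).

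Cyp2c22 (1387949_at), a P450 known to hydroxylate retinoic acid, fell on BNF and rose on D3T. Control livers read 11.83, 11.61, 11.82, 12.61 and 12.36, and BNF livers 10.59, 10.44, 9.65, 10.63 and 10.35. D3T livers read 13.29, 13.09, 13.75, 13.19 and 12.79, and OLT livers 12.31, 12.67, 12.12, 12.71 and 12.56. The BNF arrays lay below all control arrays and the D3T arrays above them, while the OLT arrays overlapped the control range. Group means were 12.05 ± 0.42 (SD, n = 5) for control, 10.33 ± 0.40 for BNF, 13.22 ± 0.35 for D3T and 12.47 ± 0.25 for OLT. The difference was -1.71 (SE 0.21, adjusted p = 8.81e-05) on BNF, 3.28-fold lower, and 1.17 (SE 0.21, adjusted p = 0.00157) on D3T, 2.25-fold higher. On OLT it was 0.43 (95% interval -0.02 to 0.88, adjusted p = 0.250), not called. Both calls held in every alternative run and under every omission of 1 array.

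Among the other Cyp2c genes, Cyp2c12 (1368155_at), the female-type steroid-sulfate hydroxylase, rose slightly on both dithiolethione diets. It read 14.09, 14.39, 14.70, 14.32 and 14.52 in control and 14.41, 14.57, 14.44, 14.40 and 14.60 in BNF livers. In D3T livers it read 14.67, 14.89, 14.86, 14.54 and 14.80, and in OLT livers 14.94, 14.74, 14.90, 14.66 and 14.66. Control 3 overlapped the dithiolethione arrays and control 1 was the lowest of all. The differences were 0.35 on D3T (adjusted p = 0.0260), 1.27-fold, and 0.37 on OLT (adjusted p = 0.0269), 1.30-fold, with 0.08 on BNF (adjusted p = 0.816). With quantile normalization they were 0.24 on D3T and 0.25 on OLT (adjusted p = 0.0168 and 0.0214). The 7 kept hepatocyte markers had median differences of 0.15 on D3T and 0.21 on OLT, and a shift shared with them was not tested. The D3T call was lost without control 1, 2 or 4 or D3T 2 or 3 (0.27 to 0.34, adjusted p from 0.0546 to 0.0721), and the OLT call without control 1, 2 or 4 or OLT 1 or 3 (0.30 to 0.37, adjusted p from 0.0587 to 0.0749). Both calls were also lost with no filter (adjusted p = 0.0520 and 0.0548) and with only the groups compared (0.0822 and 0.0975), the D3T call with centring (0.49, adjusted p = 0.0525) and the OLT call without D3T 5 and OLT 1 (0.33, adjusted p = 0.0799).

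Cyp2c23 (1367988_at), an epoxygenase of arachidonic acid, rose on D3T. Control arrays read 13.69, 13.83, 13.79, 13.80 and 13.80 and BNF arrays 13.83, 13.84, 13.90, 13.82 and 13.90. D3T arrays read 14.08, 14.12, 13.99, 13.92 and 13.97 and OLT arrays 14.03, 13.82, 13.99, 13.79 and 14.10. The D3T arrays all lay above the control arrays, by a small step: the difference was 0.23 (SE 0.06, adjusted p = 0.0204), 1.18-fold. It was lost without D3T 2 (0.21, adjusted p = 0.0599) and by eBayes without trend (adjusted p = 0.0608). On OLT the difference was 0.16 (adjusted p = 0.127) and on BNF 0.07 (adjusted p = 0.664). Cyp2c6v1 and Cyp2c7 were not called against control, with differences between -0.33 and 0.12. With quantile normalization the D3T difference of Cyp2c7 was called (-0.45, adjusted p = 0.0244). Cyp2c7, which also oxidizes retinoids, read 14.47, 14.11, 14.31, 14.17 and 15.06 on D3T and 14.50, 14.96, 15.00, 14.94 and 14.96 on OLT, so that D3T 5 and OLT 1 each lay nearer to the other diet's arrays.

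Cyp2a1 (1387511_at), a testosterone hydroxylase, was higher on every BNF array than on any control array, but its own probe set missed the threshold. Control livers gave 11.48, 12.32, 12.02, 12.07 and 12.53, and BNF livers 12.71, 12.82, 12.56, 12.63 and 12.96. D3T livers gave 12.15, 11.90, 11.99, 11.45 and 12.26, and OLT livers 11.72, 11.99, 12.36, 12.32 and 12.26. The BNF difference was 0.65 (SE 0.18, adjusted p = 0.0511), 1.57-fold, and became called without control 5 (0.76, adjusted p = 0.0285), D3T 4 (adjusted p = 0.0347), D3T 5 (adjusted p = 0.0480) or OLT 1 (adjusted p = 0.0393). It was also called in 7 other alternative runs (adjusted p from 0.0099 to 0.0468), among them centring, quantile normalization and array weights. The probe set that names Cyp2a2 and Cyp2a1 together (1369275_s_at) rose on BNF. It read 12.34, 13.14, 12.89, 12.89 and 13.26 in control and 13.57, 13.87, 13.49, 13.56 and 13.85 in BNF livers. D3T livers read 12.95, 12.74, 12.66, 12.23 and 13.15 and OLT livers 12.87, 12.94, 13.23, 13.19 and 13.09. The BNF arrays stood clear of all other arrays, and the difference from control was 0.77 (adjusted p = 0.0120), 1.70-fold, called in every alternative run. The probe set of Cyp2a2 alone stayed under the filter on all 20 arrays.

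Cyp2f4 (1368608_at), best known for oxidizing naphthalene in lung, and Cyp2t1 (1368265_at) follow Cyp2a1 and Cyp2a2 in RefSeq's gene order, and both rose on D3T. Cyp2f4 read 7.36, 6.54, 7.10, 6.58 and 6.28 in control and 6.02, 5.77, 6.27, 6.68 and 6.64 in BNF livers. It read 8.01, 7.87, 8.55, 7.35 and 7.77 in D3T and 7.55, 8.08, 6.81, 7.53 and 7.60 in OLT livers. Control 1 and D3T 4 met at the edge of their groups, and the D3T difference was 1.14 (SE 0.26, adjusted p = 0.00784), 2.20-fold. On OLT it was 0.74 (adjusted p = 0.0966), called without OLT 3 (0.92, adjusted p = 0.0474), and on BNF it was -0.50 (adjusted p = 0.381). Centring, quantile normalization and array weights also called the OLT difference (adjusted p from 0.00302 to 0.0346).

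Cyp2t1 read 7.84, 7.35, 7.35, 6.89 and 6.82 in control and 7.86, 7.16, 8.01, 8.16 and 8.11 in BNF livers. D3T livers read 8.09, 8.03, 8.42, 8.39 and 7.96 and OLT livers 7.61, 7.91, 7.65, 8.22 and 8.10. D3T arrays all lay above the control arrays, and the others overlapped them. The difference was 0.93 (SE 0.21, adjusted p = 0.00685), 1.90-fold, on D3T, against 0.65 on OLT (adjusted p = 0.0683) and 0.61 on BNF (adjusted p = 0.123). The OLT difference was called without control 1 (0.80, adjusted p = 0.0313) or BNF 2 (adjusted p = 0.0362), and the BNF difference without BNF 2 (0.79, adjusted p = 0.0343). Centring, quantile normalization, array weights and the interquartile covariate also called both differences. Adjusted p there ran from 0.00652 to 0.0145 on OLT and from 0.00188 to 0.0417 on BNF. The D3T calls of Cyp2f4 and Cyp2t1 held under every omission of 1 array.

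Cyp2j3, an epoxygenase of arachidonic acid, fell on BNF by its main probe set (1370706_a_at). That probe set read 8.81, 8.35, 8.53, 8.60 and 8.71 in control and 8.11, 8.08, 7.58, 7.93 and 7.71 in BNF livers. It read 8.61, 8.57, 9.03, 9.01 and 8.63 in D3T and 8.77, 8.64, 8.05, 8.67 and 8.82 in OLT livers. Every BNF array lay below every control array, and OLT 3 lay at the BNF level. The difference was -0.72 (SE 0.16, adjusted p = 0.0122), 1.64-fold lower, on BNF, 0.17 on D3T (adjusted p = 0.515) and -0.01 on OLT (adjusted p = 0.980). The second Cyp2j3 probe set (1381074_at) lay between 3.93 and 5.04, near background, and was not called (-0.25 on BNF, adjusted p = 0.457). Its neighbour Cyp2j4 (1387296_at) was not called on any diet. Cyp2j4 read 10.04, 10.05, 9.59, 10.05 and 10.05 in control, 9.41, 8.80, 9.96, 9.74 and 9.65 in BNF, 9.40, 9.64, 10.15, 9.75 and 9.52 in D3T and 9.75, 9.50, 9.07, 9.69 and 9.46 in OLT livers. These groups overlapped, and the differences were -0.44, -0.26 and -0.46 (adjusted p = 0.255, 0.418 and 0.159).

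Cyp2d3 (1370496_at), of the debrisoquine-hydroxylase subfamily, was the only member called lower on OLT. It read 13.05, 13.15, 13.23, 13.20 and 13.32 in control and 12.27, 12.34, 12.97, 12.61 and 13.21 in BNF livers. D3T livers read 12.24, 12.23, 12.84, 12.90 and 12.97 and OLT livers 12.11, 12.66, 12.70, 12.81 and 12.42. All D3T and OLT arrays lay below all control arrays, as did 4 of the 5 BNF arrays. The difference was -0.65 on OLT (SE 0.19, adjusted p = 0.0437), -0.55 on D3T (adjusted p = 0.0618) and -0.51 on BNF (adjusted p = 0.158). The OLT call was lost when any control array, BNF 4, or OLT 1, 2, 3 or 5 was left out (-0.69 to -0.54, adjusted p from 0.0549 to 0.118). It was also lost with centring (-0.48, adjusted p = 0.125), no filter (adjusted p = 0.100), the interquartile range as a covariate (adjusted p = 0.0745) and without D3T 5 and OLT 1 (-0.54, adjusted p = 0.107). The D3T difference was called without BNF 5 (adjusted p = 0.0429), D3T 5 (-0.64, adjusted p = 0.0399) or OLT 1 (adjusted p = 0.0472). It was also called in 6 other alternative runs (adjusted p from 0.0165 to 0.0477), but not with centring (-0.41, adjusted p = 0.163). Array weights called the BNF difference (adjusted p = 0.0174). Cyp2d2, Cyp2d4 (1370329_at) and the shared probe set of Cyp2d5 and Cyp2d1 (1370377_at) were not called against control, with differences between -0.26 and 0.16. That shared probe set read 12.78, 12.68, 12.66, 12.75 and 12.77 in control, 12.61, 12.41, 12.52, 12.67 and 12.80 in BNF, 12.39, 12.40, 12.82, 12.51 and 13.21 in D3T and 12.50, 12.76, 12.55, 12.89 and 12.75 in OLT livers, and D3T 5 was the highest of all.

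The shared probe set of Cyp2b2 and Cyp2b1 (1371076_at), the phenobarbital-inducible genes that CAR is known to switch, had wide groups. It read 9.17, 8.84, 9.88, 9.13 and 10.63 in control and 9.47, 9.54, 8.81, 7.51 and 10.38 in BNF livers. D3T livers read 9.98, 10.02, 11.47, 9.91 and 11.45 and OLT livers 10.35, 11.26, 10.36, 11.80 and 11.57. Control 5 and BNF 5 reached into the OLT range, and BNF 4 was the lowest array. The differences from control were 1.54 on OLT (95% interval 0.52 to 2.57, adjusted p = 0.0662), 1.04 on D3T (adjusted p = 0.187) and -0.39 on BNF (adjusted p = 0.823), where leaving out BNF 4 gave 0.02. The OLT difference was called without control 5 (1.82, adjusted p = 0.0460) or BNF 4 (adjusted p = 0.0402). Centring, quantile normalization, array weights, the replicate block and the interquartile covariate also called it (adjusted p from 0.0131 to 0.0423). The remaining alternative runs did not call it, with an adjusted p of 0.0649 without D3T 5 and OLT 1. Array weights also called the D3T difference (adjusted p = 0.0465). Cyp2b3, the constitutive form, was not called on any diet against control, with differences from -0.17 to 0.13. Its BNF difference was called with array weights.

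Cyp2e1 (1367871_at), the ethanol-inducible P450, was not called. It read 14.81, 15.11, 15.26, 15.03 and 15.20 in control, 14.88, 14.96, 15.04, 14.89 and 15.06 in BNF, 14.95, 14.99, 14.98, 14.92 and 15.19 in D3T and 15.11, 15.11, 15.23, 15.01 and 15.06 in OLT livers. The groups overlapped, and the differences from control were -0.11 (95% interval -0.27 to 0.05), -0.07 (-0.23 to 0.09) and 0.02 (-0.13 to 0.18).

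The BNF diet was tested against each dithiolethione diet directly, as diets with different compounds at different doses. Against D3T, 5 of 20 members were called, where 14.9% of all kept probe sets were, and against OLT 4 of 20, where 9.62% were. Cyp2c22 was lower on BNF by the widest margin among them, -2.89 against D3T (adjusted p = 3.62e-08), 7.40-fold, and -2.14 against OLT (adjusted p = 3.9e-06), 4.41-fold. Cyp2f4 was lower by -1.63 (adjusted p = 0.000331) and -1.24 (adjusted p = 0.00519), and Cyp2j3 by -0.89 (adjusted p = 0.000716) and -0.71 (adjusted p = 0.00672). Cyp2a1 was higher on BNF, by 0.79 against D3T (adjusted p = 0.00566) and by 0.60 against OLT (adjusted p = 0.0384). The call against OLT was lost without D3T 5 and OLT 1 (0.50, adjusted p = 0.0981), with centring, with no filter, and when BNF 1, 2, 4 or 5 or OLT 1 or 2 alone was left out. The call left over was Cyp2b3, lower on BNF than on D3T (-0.30, adjusted p = 0.00661). Apart from these, the pair probe set of Cyp2a2 and Cyp2a1 was higher on BNF than on D3T (0.92, adjusted p = 0.000886) and OLT (0.60, adjusted p = 0.0259), and that of Cyp2b2 and Cyp2b1 was 3.81-fold lower on BNF than on OLT (-1.93, adjusted p = 0.0168). No Cyp3a member was called between BNF and a dithiolethione diet. For Cyp3a9 the BNF minus D3T difference was 0.69 (95% interval -0.20 to 1.58) and the BNF minus OLT difference -0.29 (-1.18 to 0.60). Without D3T 5 and OLT 1 the count against D3T was 8, where 15.2% of all kept probe sets were called, with Cyp2c7 (0.38), Cyp3a23-3a1 (0.67) and Cyp3a9 (1.04) called higher on BNF.

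The dithiolethione diets, D3T at 600 and OLT at 500 mg per kg, were then compared with each other, which compares these diets and not the compounds at a matched dose. By limma none of the 20 members was called (4 had an unadjusted p under 0.05), and none of the 12947 kept probe sets was (0%; 1385 had an unadjusted p under 0.05). With limma's array weights 112 probe sets were called, and still no member. The 4 members at an unadjusted p under 0.05 were Cyp2c22 (OLT minus D3T -0.75, 95% interval -1.20 to -0.30), Cyp2c7 (0.45, 0.13 to 0.76), Cyp3a9 (0.98, 0.09 to 1.87) and Cyp2b3 (-0.18, -0.32 to -0.03), with adjusted p of 0.220, 0.278, 0.417 and 0.345. For Cyp2c12 the interval was -0.18 to 0.23, and for Cyp2e1 -0.06 to 0.26. For Cyp3a18 it ran from -1.37 to 2.10 and would hold a difference of either sign. These intervals do not show that the diets act alike.

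The arrays D3T 5 and OLT 1 carry much of that spread. Without both, 3 of 20 members were called between OLT and D3T, where 4.24% of all kept probe sets were, and all 3 were higher on OLT. Cyp3a9 was 1.69 higher (95% interval 1.01 to 2.37, adjusted p = 0.00565), Cyp2c7 0.70 higher (adjusted p = 0.00101) and Cyp3a23-3a1 0.79 higher (adjusted p = 0.0452). Cyp2c7 was also called with D3T 5 alone left out. The pair was picked for lying close to the other diet, so leaving it out widens the difference between the diets by construction, and these values are no independent support. The diet-marker genes went against the labels of both arrays. Without both arrays limma called no member between OLT and control (8 of 20 at an unadjusted p under 0.05), against 4.59% of all kept probe sets. For D3T and control it called 10, where 13.2% were, adding Cyp2c7 (-0.49), Cyp2d3 (-0.64) and Cyp3a18 (-2.63) to the 7.

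**Figure D4:**
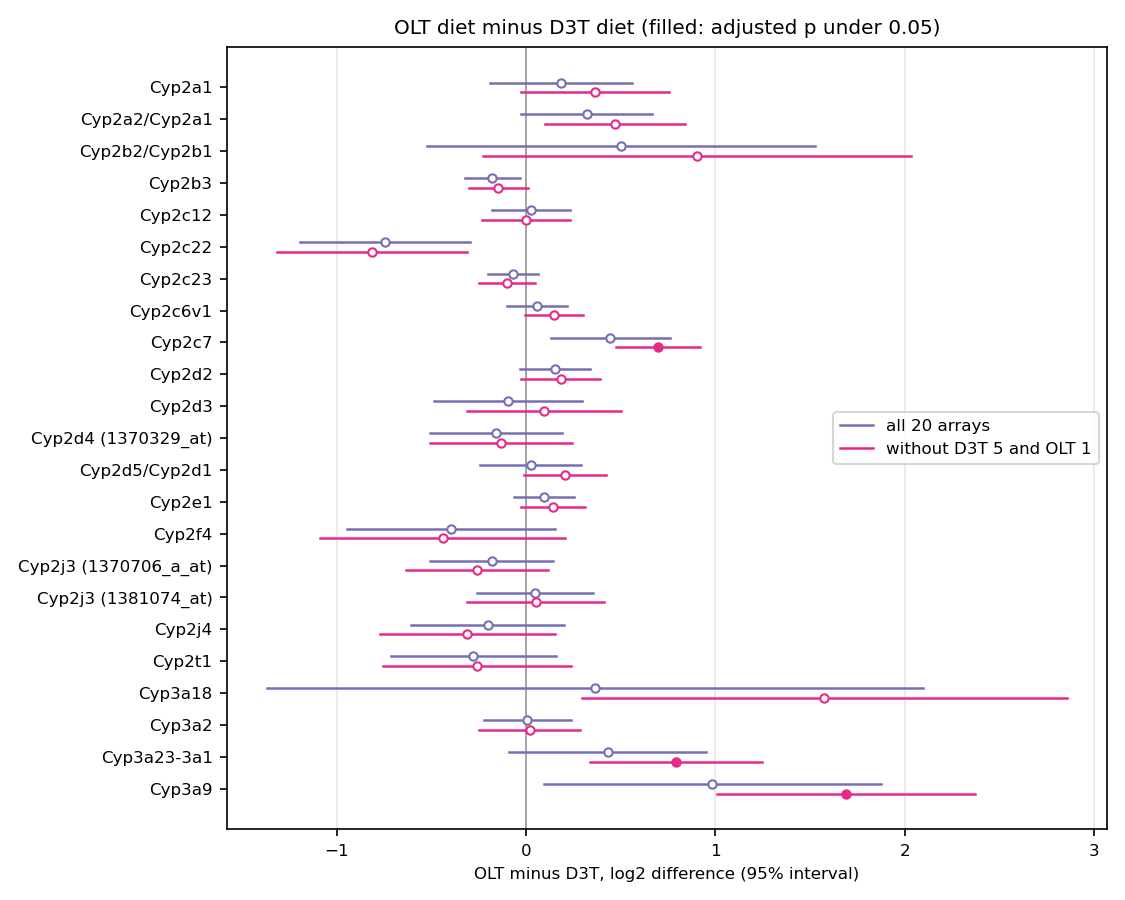
OLT minus D3T difference on the log2 scale with its 95% interval (x axis) for the 23 kept members (y axis), from all 20 arrays and without the arrays labelled D3T 5 and OLT 1; filled points have an adjusted p under 0.05. With all arrays no point is filled, and without the pair Cyp2c7, Cyp3a23-3a1 and Cyp3a9 are filled at 0.70, 0.79 and 1.69.

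Genes that act on these P450s were read from lists chosen with earlier results of these data known. Of 24 regulators, 18 were kept. On D3T 1 rose and 2 fell, on OLT 1 rose and 1 fell, and on BNF 1 fell. Of all kept probe sets 11.6%, 6.38% and 3.48% were called on these diets, so the counts of regulators lie near the background. Nr1i2, which encodes PXR, read 9.80, 9.73, 9.52, 9.39 and 9.60 in control, 8.83, 8.72, 8.82, 8.53 and 8.63 in D3T and 8.61, 8.76, 8.86, 8.63 and 9.50 in OLT livers, with no overlap except OLT 5. Its difference was -0.90 on D3T (adjusted p = 0.000469) and -0.73 on OLT (adjusted p = 0.00462), with -0.27 on BNF (adjusted p = 0.380). Nr0b2, the small heterodimer partner, a repressor of other nuclear receptors, rose by 2.12 on D3T (adjusted p = 0.00397) and 1.94 on OLT (adjusted p = 0.0120). Foxa3, a liver transcription factor, fell on D3T (adjusted p = 4.9e-05), from 7.40, 7.28, 6.84, 7.08 and 7.16 in control livers to 4.10, 3.97, 3.79, 3.67 and 6.13. All but D3T 5 lay at background there, so the size of the fall is not measured. Nr1h4, the bile acid receptor, fell on BNF (-0.82, adjusted p = 0.00953). Nr1i3, which encodes CAR, was not called on any diet.

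Of 14 genes of electron supply and heme synthesis, 13 were kept. On D3T 3 rose and 1 fell, on OLT 1 rose and 2 fell, and on BNF 2 fell. Of all kept probe sets 11.6%, 6.38% and 3.48% were called on these diets. Por, the reductase that feeds electrons to these enzymes, read 11.94, 12.16, 12.36, 12.37 and 13.00 in control and 12.11, 11.75, 12.71, 11.65 and 11.73 in BNF livers. It read 10.10, 10.24, 10.46, 10.72 and 10.89 in D3T and 11.57, 10.87, 11.41, 11.09 and 11.20 in OLT livers, below all control arrays in both groups. Por fell by 1.88 on D3T (adjusted p = 2.54e-05) and by 1.14 on OLT (adjusted p = 0.00406), with -0.37 on BNF (adjusted p = 0.447). Cyb5r3, the reductase of cytochrome b5, rose 2.01-fold on D3T (adjusted p = 0.000176) and by 0.49 on OLT (adjusted p = 0.0458). Fech, the last enzyme of heme synthesis, rose by 0.93 on D3T (adjusted p = 0.00381), and Alad, an early one, fell on BNF (-0.72, adjusted p = 0.0354) with Cyb5b, a cytochrome b5 (-0.56, adjusted p = 0.0304). Hmox1, which breaks heme down, fell on OLT (-1.74, adjusted p = 0.0108).

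Of 20 other genes known as CAR or PXR targets, 12 were kept. On D3T 5 rose and 1 fell, on OLT 2 rose, and on BNF 1 fell. Of all kept probe sets 11.6%, 6.38% and 3.48% were called on these diets. Ephx1, the microsomal epoxide hydrolase, rose by 2.24 on D3T (adjusted p = 1.26e-05) and 1.70 on OLT (adjusted p = 0.000318). Gstm1, a glutathione transferase, rose by 1.28 on D3T (adjusted p = 0.000161) and 0.88 on OLT (adjusted p = 0.00638), and Aldh1a1, an aldehyde dehydrogenase, by 1.35 on D3T (adjusted p = 0.00776). Several of this list are also known Nrf2 targets. Of 14 sex-dependent liver genes 7 were kept, and 1 was called, the organic anion transporter Slco1a1, which fell on D3T (-0.77, adjusted p = 0.0450), where 6.97% of all kept probe sets fell. Of 17 kept P450 genes of other families, 3 rose and 2 fell on BNF, and 1 rose and 4 fell on each of D3T and OLT. The shares of all kept probe sets called were 3.48%, 11.6% and 6.38% on BNF, D3T and OLT. Those that fell on both included Cyp17a1, a steroid hydroxylase (6.42 to 8.84 in control livers, and 2.37 to 3.81, at background, on both diets), Cyp8b1, a sterol hydroxylase of bile acid synthesis (-1.80 and -0.88), and Cyp4a1, a fatty acid hydroxylase (-0.94 and -1.03).

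Whole liver holds several cell types, and fewer cells of a type and less RNA per cell cannot be told apart here. Of all kept probe sets 1.46% rose on BNF, 6.97% fell on D3T and 4.85% fell on OLT. Beside the BNF results, 4 of 6 kept stellate cell and fibroblast markers (of 9 fixed) rose, with a summed level from 11.37 to 12.28 in BNF and from 10.28 to 10.90 in control livers, and 2 of 8 kept Kupffer cell markers rose (11.42 to 12.42 against 10.97 to 11.55). Beside the D3T results, 3 of 5 kept pericentral hepatocyte markers fell, Glul (-1.07), Oat (-1.12) and Axin2 (-1.66), with a summed level from 13.85 to 14.84 against 14.35 to 14.81 in control livers, while on BNF 1 of the 5 rose, Cyp1a2, itself a target of the aryl hydrocarbon receptor. Cyp1a2 had the highest level of the 5 and weighs most in that sum. It lay between 13.42 and 14.51 on D3T, highest on D3T 5. Of hepatocyte markers 1 of 7, Apoa1, rose on BNF and none was called on D3T or OLT. On OLT 1 Kupffer marker, Cd163, fell (-1.46), while none of the 5 endothelial, 1 cholangiocyte and 2 lymphocyte markers kept was called on any diet. Their part in the P450 differences was not tested.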

How the data were processed

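Liver RNA of 20 rats was labelled with biotin and measured on 1-colour arrays, 1 array per rat. The authors deposited log2 values made with GCRMA (background correction, between-array normalization and probe set summary), per the submitters' processing notes; its version is not given in the sources used here. The values were used as given, and the table carries no scan dates, so scan batches were not examined. Gene names came from the platform's annotation, updated by gene identifier through RefSeq (20758 of 20826 probe sets with 1 gene matched); 436 named several genes and 9780 none.

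Tests used R 4.3.3 and limma 3.58.1 (lmFit, eBayes with an intensity trend), fitting the 20 arrays together, 1 coefficient per diet, with 6 comparisons, two-sided, over 12947 probe sets with a log2 value above 4 on at least 5 arrays. The threshold was a Benjamini-Hochberg adjusted p under 0.05. SE and 95% intervals rest on limma's moderated variances. The replicate number was not a block: same-numbered arrays deviated from their diet means with correlations from -0.27 to 0.30. Members named with values on every array were, by rule, those called against control, up to 6 in each direction, and chosen well-known forms where kept; of lists, up to 3 called genes per comparison.

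The members and lists were chosen with earlier results of these data known. Alternatives were centring, quantile normalization, no filter, a filter at log2 above 6, array weights, eBayes with a robust prior or without trend, only the groups compared, the replicate block, averaging probe sets of 1 gene, and leave-outs of each array or of D3T 5 and OLT 1. A covariate for the arrays' interquartile range was chosen after seeing the data. The script was tested on simulated data for D3T versus control over 12947 probe sets. It recovered 82 of 100 simulated 2-fold changes and 97 of 100 simulated 4-fold changes, and 6 of its 185 calls were false.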

Additional observations from a re-analysis of the deposited data

Results flagged for a closer look

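Of 92 groups of 5 arrays (23 kept members on 4 diets), 8 held 1 array whose gap to the nearest of the others exceeded 0.71 of the group's range, Dixon's critical value. Chance alone is expected to give about 1 in 20 groups. Cyp2c22 on BNF 3 was 9.65, where the other BNF arrays lay between 10.35 and 10.63. Cyp2c7 on OLT 1 was 14.50 (others 14.94 to 15.00), Cyp2d2 on BNF 1 was 13.70 (others 13.96 to 14.04), and Cyp2e1 on D3T 5 was 15.19 (others 14.92 to 14.99). Cyp2j4 on control 3 was 9.59 (others 10.04 to 10.05). The main Cyp2j3 probe set on OLT 3 was 8.05 (others 8.64 to 8.82). The second Cyp2j3 probe set, near background, was 5.04 on control 1 (others 4.00 to 4.14) and 4.32 on OLT 5 (others 3.99 to 4.06).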

How the results depend on the processing

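No named difference from control that was called changed sign under any alternative. The calls of Cyp2c22 on BNF and D3T, of Cyp2j3 and the pair probe set of Cyp2a2 and Cyp2a1 on BNF, and of Cyp2f4, Cyp2t1 and Cyp3a9 on D3T held in every alternative run. Of the values of named members under the alternatives, 1491 kept their direction and side of the threshold, 55 became called and 48 lost their call. Another 35 changed sign without being called, with values from -0.11 to 0.16 and adjusted p of 0.522 or more; they belong to Cyp2a1, Cyp2e1, Cyp3a2, the main Cyp2j3 probe set and the shared probe sets of Cyp2b2 and Cyp2b1 and of Cyp2d5 and Cyp2d1. The count of members called on BNF (3) was 5 with centring, 5 with quantile normalization and 7 with array weights. Over all kept probe sets the BNF calls rose too, from 450 in the main fit to 501, 572 and 1480 in these runs. The OLT count (2) was 4 with quantile normalization, 6 with array weights, 1 with only the groups compared, and 0 with no filter or without D3T 5 and OLT 1. Over all kept probe sets the OLT calls were 826 in the main fit, 1157 with quantile normalization and 594 without the pair. With no filter they were 457 of 31042. The count between BNF and D3T (5) was 8 without D3T 5 and OLT 1 and 9 with the interquartile range as a covariate, and that between OLT and D3T (0) was 3 without D3T 5 and OLT 1. Over all kept probe sets these 2 comparisons had 1935 and 0 calls in the main fit, and 1973 and 549 without the pair. With no filter more probe sets enter the adjustment; for the others the cause was not tested. Without 1 array at a time the counts ranged from 2 to 4 (BNF), 4 to 9 (D3T), 0 to 3 (OLT), 5 to 6 (BNF and D3T), 3 to 6 (BNF and OLT) and 0 to 1 (OLT and D3T). With the replicate block the counts were 4, 9, 3, 6, 6 and 0 in the same order. By deviations from the diet means, 2 of 20 arrays were closest to an array of their own number. Same-numbered arrays had a mean correlation of 0.05, against -0.01 for other pairs across diets, which cannot decide whether the numbers pair the rats. Calls over all probe sets are not given here for the block and the single-array omissions. Values near 4 lie at background, where GCRMA compresses differences, and 5 rats per diet limit what could be called.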
